A study of Caenorhabditis elegans with 4 samples.

Results

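In whole worms of Caenorhabditis elegans, 31 genes well covered by reads on a diet of Escherichia coli were close to absent from the libraries of worms fed Bacillus subtilis. They were chosen by raw reads. Each gene was represented by its most read transcript line, summed over the 4 libraries, and a gene was kept if it had at least 600 reads over both OP50 libraries and at most 12 over both PY79 libraries. The 31 genes are a small part of 17096 genes in the count table, and 1.68% of the 1850 genes that had at least 600 OP50 reads.

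The 4 libraries are, for the wild-type strain N2, PY79 at day 13 and at day 4 of adulthood and OP50 at day 13 and at day 4. PY79 is a strain of B. subtilis, a soil bacterium, and OP50 is the E. coli strain that is the usual laboratory food. Each library came from a synchronized population of whole worms and was built from poly(A) RNA with enrichment for 3′ ends, and each condition had 1 library, so there is no replicate check. The comparisons ask how food and age go with transcript levels, and all 4 libraries share the strain and the tissue. 

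The chosen genes do not belong to 1 pathway. They include genes of membrane traffic, in which Rab GTPases mark vesicles and TRAPP complexes tether them to their target membrane, of mitochondrial division, of the extracellular matrix and cuticle, and of sperm. The worm genome is compact, and neighbouring genes often share sequence at their ends, so a count near a 3′ end can belong to more than 1 annotated gene.

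The libraries differed strongly in depth. The chosen transcripts held 4469802 reads on PY79 at day 13 and 4838114 at day 4, against 28552961 on OP50 at day 13 and 28650595 at day 4. OP50 was thus 6.39 times deeper at day 13 and 5.92 times deeper at day 4. At equal shares of total reads, 600 OP50 reads correspond to 97.6 PY79 reads. Intestine markers were present in every library, summing to 4051 CPM on PY79 at day 13 and 18535 CPM at day 4, against 9292 CPM on OP50 at day 13 and 24595 CPM at day 4, and 0 of the 10 markers were at 0 reads on PY79. In whole worms, fewer cells of a type and less RNA per cell cannot be told apart.

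The 31 genes together held 117 reads at day 13 and 129 reads at day 4 on PY79, against 8977 reads at day 13 and 20884 reads at day 4 on OP50. As a share of each library this was 0.00262% at day 13 and 0.00267% at day 4 on PY79, against 0.0314% at day 13 and 0.0729% at day 4 on OP50. Single genes had at most 8 reads at day 13 and 9 reads at day 4 on PY79, so none of them reached 10 reads in a PY79 library, and all 31 passed the filter of 10 reads in at least 1 library only through OP50. The median over all 1850 genes was 252.5 PY79 reads over both days, and 5% of them had 27.45 reads or fewer. The read limits chose these genes, so their low PY79 values are a description.

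**Figure D1:**
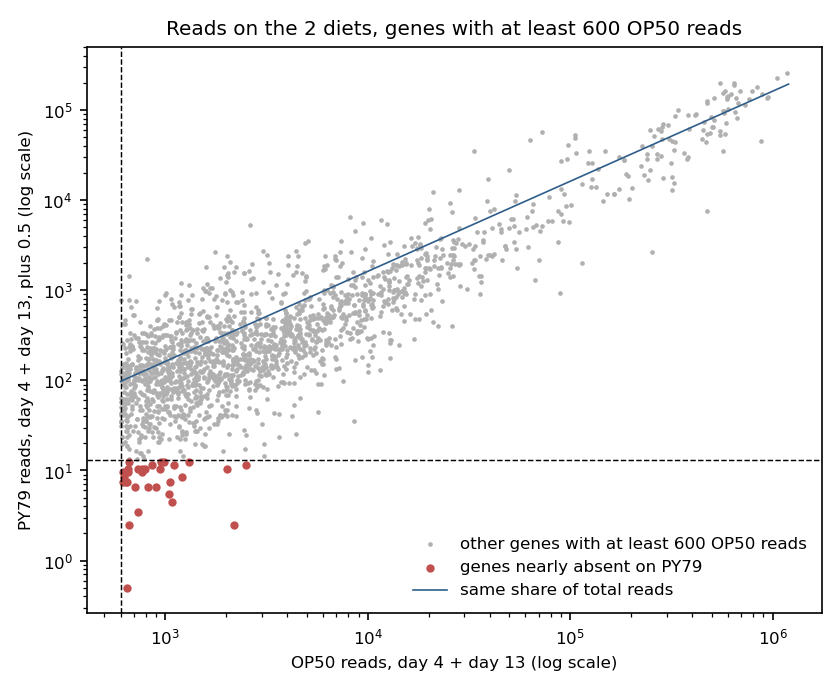
Reads over both days on OP50 (x axis, log scale) and on PY79 (y axis, log scale, with 0.5 added) for the 1850 genes with at least 600 OP50 reads. Red points are the 31 chosen genes, grey points the other 1819, dashed lines the limits of 600 and 12 reads, and the blue line an equal share of total reads. The chosen genes lie at the lower edge of the cloud, with 0 to 12 PY79 reads and 619 to 2499 OP50 reads.

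Genes just inside and just outside the limits differed by few reads. F53A9.1, fis-2, Y48G8AL.9 and Y17G9B.4 were included with 12 PY79 reads each, and C50E3.12, pcyt-1 and mrps-11 were left out with 13. C29F9.2 and glb-29 were included with 619 OP50 reads each, and tbx-43 was left out with 599 and set-23 with 592, although each of these had only 3 PY79 reads.

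Levels are compared below as reads scaled to library size by TMM, a method that corrects for differences in composition. A ratio comes with an exact 95% Clopper-Pearson interval on the split of reads between 2 libraries, which covers counting error only. A gene is called lower or higher when the ratio is at least 2-fold and the interval excludes 1, with no p-value, since each group has 1 library. Where a library had 0 reads, the fold is a bound against 3 reads in that library.

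At day 13 the low level on PY79 held for 28 of the 31 genes, and at day 4 for all 31. Over all 9032 genes with at least 10 reads in a library, 22.8% were lower on PY79 at day 13 and 24.3% at day 4, and over the 1850 genes with at least 600 OP50 reads the shares were 60.5% and 60.1%. Because the rule used this contrast, nothing is read from the difference between these shares and the counts. The median log2 ratio of the 31 genes, computed with a prior count of 1, was -4.14 at day 13 and -4.75 at day 4. With genes at 0 PY79 reads set at their bound, it was -4.12 at day 13 and -4.75 at day 4. The median over the 1850 genes was -1.34 at day 13 and -1.31 at day 4.

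The 3 genes that were not lower at day 13 were those with few reads on OP50 at that age. W02G9.4 had 4 reads at day 13 and 6 at day 4 on PY79, against 13 at day 13 and 756 at day 4 on OP50. At day 13 its scaled level was 1.12-fold higher on PY79 (interval 0.265 to 3.61), and at day 4 it was 25.7-fold lower (11.8 to 70.4). The gene hpo-6, whose name comes from a screen for hypersensitivity to pore-forming toxin, had 1 read at day 13 and 9 at day 4 on PY79, against 14 at day 13 and 722 at day 4 on OP50. It was 3.86-fold lower on PY79 at day 13, with an interval of 0.588 to 163, and 16.4-fold lower at day 4 (8.59 to 36). W10G11.2 had 3 reads at day 13 and 0 at day 4 on PY79, against 22 at day 13 and 711 at day 4 on OP50, a ratio of 2.02-fold lower at day 13 (0.608 to 10.6) and at least 48.4-fold lower at day 4. For these 3 genes the diets could not be separated at day 13 at this depth. Both OP50 libraries were above both PY79 libraries in CPM in 29 of the 31 genes, the exceptions being W02G9.4 and hpo-6. The same order was found in 31.1% of the 9032 genes and 65.4% of the 1850.

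**Figure D2:**
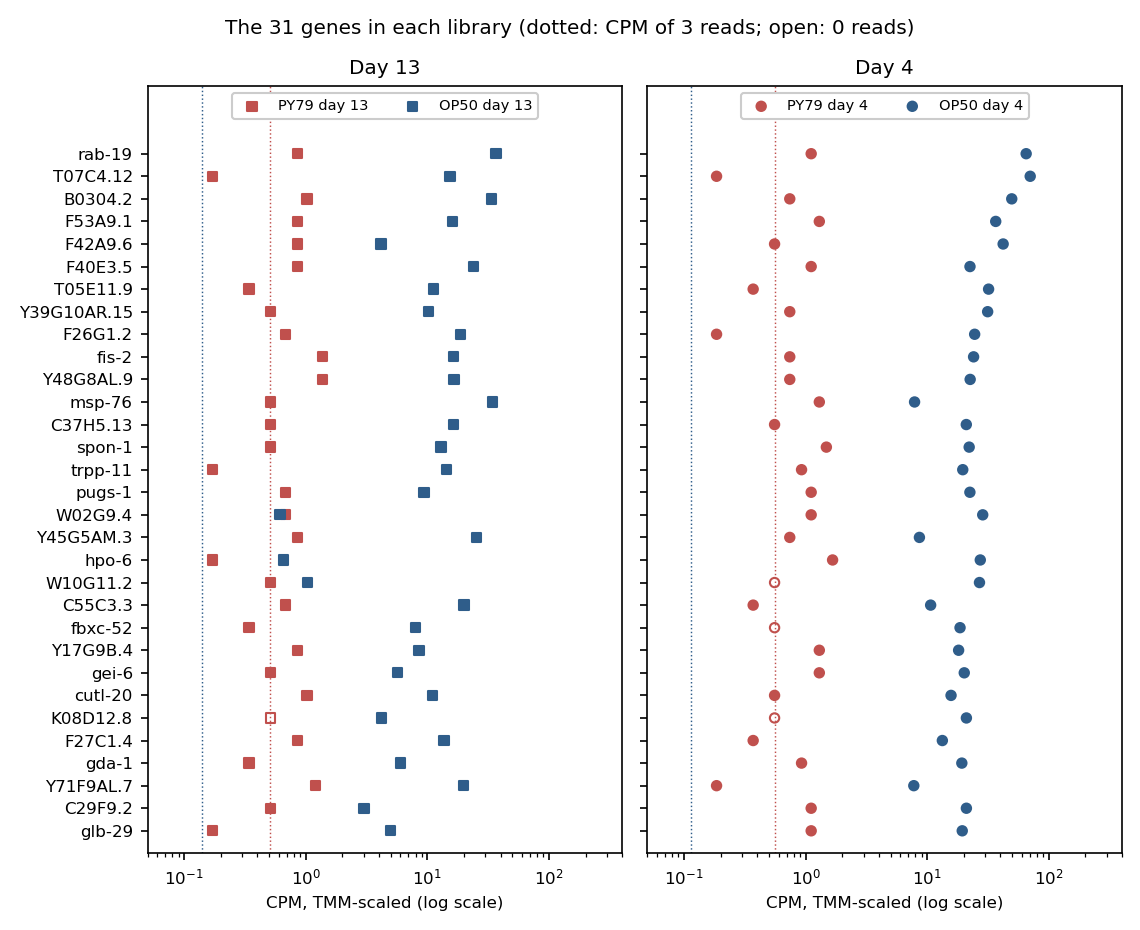
TMM-scaled CPM (x axis, log scale) of each of the 31 genes at day 13 (left panel) and day 4 (right panel), PY79 in red and OP50 in blue, ordered by OP50 reads. Dotted lines mark the CPM of 3 reads in each library and open symbols a library with 0 reads, drawn at that line. The colours are apart for every gene at day 4, and at day 13 they meet at W02G9.4 and come close at hpo-6 and W10G11.2.

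Of the genes of membrane traffic and mitochondria, rab-19, which encodes a Rab GTPase, had the most OP50 reads. It had 5 reads at day 13 and 6 at day 4 on PY79, against 778 at day 13 and 1721 at day 4 on OP50, which is 42.9-fold lower at day 13 (18.3 to 133) and 58.6-fold lower at day 4 (26.9 to 160). The TRAPP subunit gene trpp-11 had 1 read at day 13 and 5 at day 4 on PY79, against 306 at day 13 and 518 at day 4 on OP50. Its ratio was 84.4-fold lower at day 13, with a wide interval of 15 to 3344 because of the single read, and 21.2-fold lower at day 4 (9.01 to 65.5). The gene fis-2, related to the mitochondrial fission factor Fis1, had 8 reads at day 13 and 4 at day 4 on PY79, against 348 at day 13 and 636 at day 4 on OP50. It was 12-fold lower at day 13 (6.02 to 28.0) and 32.5-fold lower at day 4 (12.6 to 120). In all 3 genes both OP50 libraries stood above both PY79 libraries, as in 65.4% of the 1850 genes with at least 600 OP50 reads. The read limits favour this order, so it is a description.

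Other genes of these families did not share this level. The families were listed after the 31 genes were known. Each family count here and below includes the chosen gene, which the rule picked for low PY79 reads. Over all 9032 genes, 22.8% were lower on PY79 at day 13 and 24.3% at day 4. Of 16 Rab genes with at least 10 reads in a library, 6 were lower and 3 were higher on PY79 at day 4, and 6 were lower and 2 higher at day 13, with median log2 ratios of 0.12 at day 13 and -0.14 at day 4. The Rab gene rab-21 was higher on PY79 at both days, with 88 reads at day 13 and 101 reads at day 4 on PY79, against 82 at day 13 and 49 at day 4 on OP50. Of 7 TRAPP genes, trpp-11 was the 1 gene lower on PY79 at day 13, while trpp-3, trpp-4, trpp-5 and trpp-6 were higher. At day 4, trpp-11 and trpp-5 were lower and trpp-3, trpp-4 and trpp-6 were higher.

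The extracellular matrix and cuticle were represented by spon-1 and cutl-20. The gene spon-1 encodes F-spondin, a secreted matrix protein, and had 3 reads at day 13 and 8 at day 4 on PY79, against 274 at day 13 and 585 at day 4 on OP50. It was 25.2-fold lower on PY79 at day 13 (8.53 to 123) and 14.9-fold lower at day 4 (7.53 to 34.8). The cuticlin-like gene cutl-20 had 6 reads at day 13 and 3 at day 4 on PY79, against 235 at day 13 and 415 at day 4 on OP50, and was 10.8-fold lower at day 13 (4.89 to 29.7) and 28.3-fold lower at day 4 (9.61 to 138). Of 6 cuticlin-like genes, 4 were lower at day 13 and 1, cutl-20, at day 4, and none was higher. The other genes had at most 11 PY79 reads in a library and 54 OP50 reads. Epidermis markers summed to 141 CPM at day 13 and 996 CPM at day 4 on PY79, against 1277 CPM at day 13 and 1357 CPM at day 4 on OP50, and 1 of the 6 was at 0 reads on PY79. Their part in the values of cutl-20 was not tested.

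The gene glb-29 encodes a globin, a haem protein that binds oxygen or related ligands. It had 1 read at day 13 and 6 at day 4 on PY79, against 106 at day 13 and 513 at day 4 on OP50, and was 29.2-fold lower at day 13 (5.14 to 1166) and 17.5-fold lower at day 4 (7.97 to 47.8). Of 5 globin genes with enough reads, glb-7, glb-28 and glb-29 were lower on both days and none was higher. The F-box gene fbxc-52, of a family whose members recruit proteins to ubiquitin ligases, had 2 reads at day 13 and 0 at day 4 on PY79, against 170 at day 13 and 492 at day 4 on OP50. It was 23.4-fold lower at day 13 (6.39 to 195) and at least 33.5-fold lower at day 4. Of 14 genes of the same F-box group, fbxc-52 included, 2 were lower and 1 was higher at day 13. At day 4, 3 were lower and none higher. Several of the others had too few reads for a call. For example, fbxc-25 had 0 reads in both PY79 libraries, against 14 at day 13 and 10 at day 4 on OP50, and was not called.

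The major sperm protein gene msp-76 differed from most of the chosen genes in its age pattern. It had 3 reads at day 13 and 7 at day 4 on PY79, against 729 at day 13 and 208 at day 4 on OP50. The ratio was 67.0-fold lower on PY79 at day 13 (22.8 to 326) and 6.07-fold lower at day 4 (2.90 to 15.3), the smallest of the 31 at day 4. Of 28 major sperm protein genes, msp-76 included, 23 were lower at day 13 and 8 at day 4, and none was higher. Their median log2 ratios were -2.04 at day 13 and -1.04 at day 4. The shares lower over all 9032 genes were 22.8% at day 13 and 24.3% at day 4. Levels on PY79 varied within the family. The gene msp-38 had 0 reads in both PY79 libraries, against 90 at day 13 and 26 at day 4 on OP50, and msp-19 and msp-59 were also at 0 on PY79, with fewer OP50 reads than msp-76. By contrast, msp-142 had 98 reads at day 13 and 12 reads at day 4 on PY79, against 1452 at day 13 and 102 at day 4 on OP50. Near-identical copies make the split of reads within this family uncertain. The sperm marker list, of which msp-142 and msp-45 are part, summed to 230 CPM at day 13 and 23.9 CPM at day 4 on PY79, against 603 CPM at day 13 and 30.9 CPM at day 4 on OP50, with 0 of 7 markers at 0 reads on PY79. Their part in the values of msp-76 was not tested.

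The remaining genes with a symbol were gei-6, pugs-1 and gda-1. The gene gei-6, named for interaction with GEX proteins, had 3 reads at day 13 and 7 at day 4 on PY79, against 121 at day 13 and 533 at day 4 on OP50. Its scaled level was 11.1-fold lower at day 13 (3.72 to 54.7) and 15.6-fold lower at day 4 (7.50 to 38.9). The gene pugs-1 had 4 reads at day 13 and 6 at day 4 on PY79, against 199 at day 13 and 593 at day 4 on OP50, and gda-1 had 2 at day 13 and 5 at day 4 on PY79, against 128 at day 13 and 509 at day 4 on OP50. All 3 had their OP50 reads weighted towards day 4.

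Sequence names were the only names of 19 genes, to which the files give no role. Among genes with reads in both PY79 libraries, T07C4.12 had the largest ratios, with 1 read at day 13 and 1 at day 4 on PY79, against 325 at day 13 and 1858 at day 4 on OP50, and was 89.6-fold lower at day 13 (16 to 3551) and 380-fold lower at day 4 (68.1 to 15005). K08D12.8 was the 1 gene with 0 reads in both PY79 libraries, against 89 reads at day 13 and 555 reads at day 4 on OP50, which is at least 8.18-fold lower at day 13 and at least 37.8-fold lower at day 4. B0304.2 had 6 reads at day 13 and 4 at day 4 on PY79, against 711 at day 13 and 1310 at day 4 on OP50. On OP50 at day 13, T07C4.12 and K08D12.8 were lower than at day 4 by the 2-fold rule, and B0304.2 was not.

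F42A9.6 had 5 reads at day 13 and 3 at day 4 on PY79, against 88 at day 13 and 1113 at day 4 on OP50, and its day 13 ratio of 4.85-fold lower (2.0 to 15.3) was the smallest among the 28 genes lower at that age. C29F9.2 came next, with 3 reads at day 13 and 6 reads at day 4 on PY79, against 64 at day 13 and 555 at day 4 on OP50, and was 5.88-fold lower at day 13 (1.93 to 29.3). F53A9.1 had 5 reads at day 13 and 7 at day 4 on PY79, against 341 at day 13 and 967 at day 4 on OP50. In all 3 the ratio between diets was larger at day 4. At that age F42A9.6 was 75.8-fold lower (25.9 to 368), C29F9.2 18.9-fold (8.63 to 51.7) and F53A9.1 28.2-fold (13.6 to 70.4). At day 13 F53A9.1 was 18.8-fold lower (7.98 to 58.3). The intervals of the 2 ages were apart for F42A9.6 and overlapped for C29F9.2 and F53A9.1.

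Several genes had a more even split of OP50 reads over age. F40E3.5 had 5 reads at day 13 and 6 at day 4 on PY79, against 510 at day 13 and 594 at day 4 on OP50. F27C1.4 had 5 at day 13 and 2 at day 4 on PY79, against 291 at day 13 and 352 at day 4 on OP50. F26G1.2 had 4 at day 13 and 1 at day 4 on PY79, against 396 at day 13 and 649 at day 4 on OP50. Their ratios on PY79 lay between 16.1-fold and 133-fold lower over both ages. The smallest was that of F27C1.4 at day 13 (6.80 to 49.8). The largest was that of F26G1.2 at day 4, with a wide interval of 23.7 to 5246 because of the single read. The second transcript line of F26G1.2 held more PY79 reads, as given below. C37H5.13 had 3 reads at each age on PY79, against 349 at day 13 and 554 at day 4 on OP50, and was 32.1-fold lower at day 13 (10.9 to 156) and 37.7-fold lower at day 4 (13 to 184).

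T05E11.9 was the single gene annotated as a non-coding RNA, and had 2 reads at each age on PY79, against 238 at day 13 and 845 at day 4 on OP50. Y48G8AL.9, the 1 gene that was not matched to the annotation, had 8 reads at day 13 and 4 at day 4 on PY79, against 352 at day 13 and 596 at day 4 on OP50. Y39G10AR.15 had 3 reads at day 13 and 4 at day 4 on PY79, against 218 at day 13 and 830 at day 4 on OP50. These genes were low on PY79 at both ages, as was Y17G9B.4, with 5 reads at day 13 and 7 reads at day 4 on PY79, against 181 at day 13 and 479 at day 4 on OP50.

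The last 3 genes had more OP50 reads at day 13. Y45G5AM.3 had 5 reads at day 13 and 4 at day 4 on PY79, against 535 at day 13 and 228 at day 4 on OP50. Y71F9AL.7 had 7 at day 13 and 1 at day 4 on PY79, against 422 at day 13 and 205 at day 4 on OP50. C55C3.3 had 4 at day 13 and 2 at day 4 on PY79, against 424 at day 13 and 282 at day 4 on OP50. Together with msp-76 they were the 4 genes with more raw reads at day 13 than at day 4 on OP50, and the other 27 had more at day 4.

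The rule used the sum of OP50 reads over both ages and not their split, so a gene could meet it through 1 age alone. On OP50, 16 of the 31 genes were lower at day 13 than at day 4, where 18.9% of the 9032 genes and 23.8% of the 1850 were, and 3 were higher, where 14.6% and 10.2% were. The 9032 genes as a whole gave 1320 higher and 1706 lower calls, and 843 higher and 2254 lower with total-read scaling. The median log2 ratio of the chosen genes was -1.08, beside 0.02 over the 9032 genes and -0.06 over the 1850. The largest differences were in W02G9.4, 46.7-fold lower at day 13 (27.1 to 88.1), hpo-6, 41.4-fold lower (24.5 to 76.1), and W10G11.2, 25.9-fold lower (17 to 41.7). These 3 of 31 genes, or 9.68%, were at least 20-fold lower at day 13, beside 21 of the other 1819 genes, or 1.15%. The 20-fold limit was chosen after the values were seen. All 3 met the limit of 600 OP50 reads through day 4 alone, so nothing is read from the difference between these shares. F42A9.6 was 10.2-fold lower (8.17 to 13) and C29F9.2 was 6.96-fold lower (5.37 to 9.16).

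Higher levels at day 13 on OP50 were found for msp-76, 4.37-fold (3.74 to 5.12), Y45G5AM.3, 2.92-fold (2.50 to 3.43), and Y71F9AL.7, 2.56-fold (2.17 to 3.05). The other 12 genes differed by less than 2-fold, among them rab-19, 1.78-fold lower (1.63 to 1.93), spon-1, 1.71-fold lower (1.48 to 1.99), and C55C3.3, 1.87-fold higher (1.61 to 2.19). On PY79 the ages could be separated for 1 gene, hpo-6, which was 9.75-fold lower at day 13 (1.35 to 427) on 1 read at day 13 and 9 at day 4. Over all 9032 genes, 7.97% were lower at day 13 on PY79. With at most 9 reads in a PY79 library, no age difference was called in the other 30 genes. At this depth all but large differences could be missed.

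**Figure D3:**
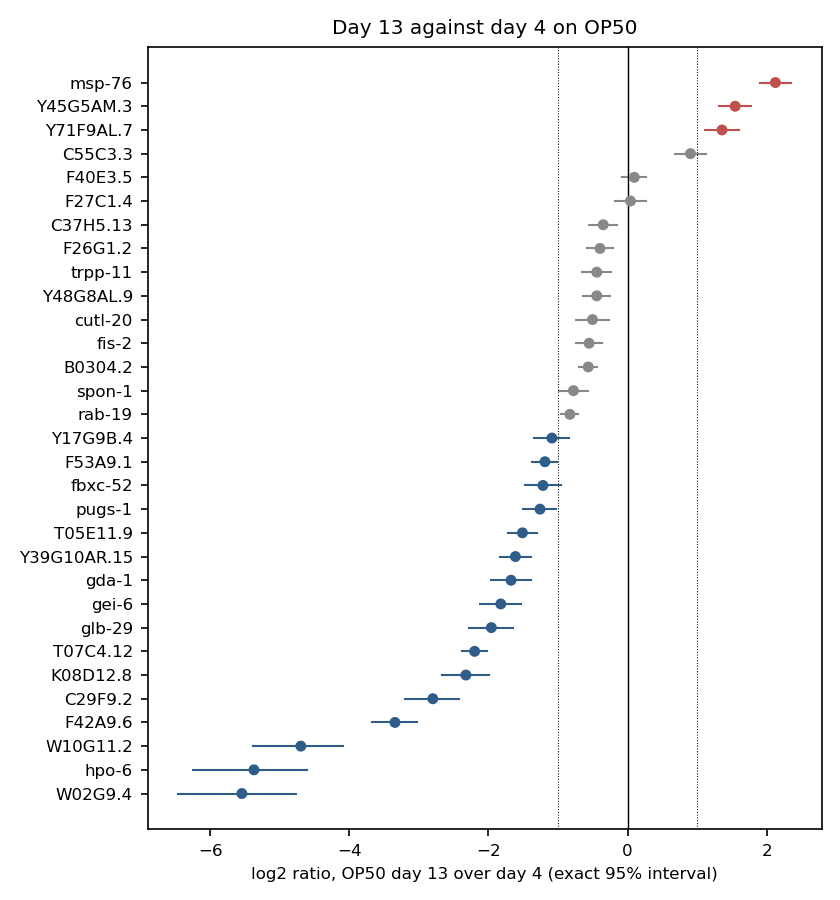
log2 ratio of scaled reads, OP50 day 13 over day 4 (x axis), for each of the 31 genes, with exact 95% intervals for counting error and dotted lines at a 2-fold difference. Blue points are the 16 genes called lower, red the 3 called higher and grey the 12 called neither. The genes reach down to W02G9.4, 46.7-fold lower, and up to msp-76, 4.37-fold higher.

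Overlaps with other genes can mislead a count near a 3′ end. The overlap shares below count any overlap of gene spans, or of exons where stated, and not only overlap at the 3′ end. In the Ensembl release 115 annotation, 17 of the 30 matched genes, or 56.7%, overlapped another annotated gene on either strand, beside 36.8% of the other 1814 matched genes with at least 600 OP50 reads. Overlaps with a gene on the other strand made up most of this, in 14 genes or 46.7%, beside 29.0%. Overlap on the same strand was found in 4 genes or 13.3%, beside 12%. With 500 bases added downstream of each gene, the share was 66.7%, below the 71.0% of the other genes. An exon shared on the same strand was found in 3 of the 30 genes, beside 7.39% of the others. An annotated 3′ UTR was missing for 5 of the 30 genes, or 16.7%, beside 6.12%, and the longest annotated 3′ UTR had quartiles of 40.8 and 153 bases, beside 71 and 195. No test was run on these shares, and the annotation used for the counts may differ.

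The 3 genes that share exons on the same strand are T07C4.12, rab-19 and cutl-20. T07C4.12 overlaps jmjd-4, which encodes a protein with a JmjC domain, and jmjd-4 had 35 reads at day 13 and 45 at day 4 on PY79, against 344 at day 13 and 1881 at day 4 on OP50. The reads that jmjd-4 had beyond those of T07C4.12 numbered 34 at day 13 and 44 at day 4 on PY79, against 19 at day 13 and 23 at day 4 on OP50. As totals, the jmjd-4 counts were 2.71-fold lower on PY79 at day 13 (1.91 to 3.96) and 8.54-fold lower at day 4 (6.36 to 11.8), while these remaining reads were 6.49-fold higher at day 13 (3.60 to 12) and 9.36-fold higher at day 4 (5.53 to 16.2). The direction of jmjd-4 thus turned with the reads that also fit T07C4.12, if each of those reads was counted for both genes. The sources used here do not state whether they were, and it was not tested. Some lines of the same gene did hold equal counts, as given below.

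The gene rab-19 overlaps Y62E10A.20, to which no role is given here. Y62E10A.20 had 11 reads at day 13 and 13 at day 4 on PY79, against 785 at day 13 and 1724 at day 4 on OP50. Beyond the rab-19 reads it had 6 at day 13 and 7 at day 4 on PY79, against 7 at day 13 and 3 at day 4 on OP50, so that nearly all its OP50 reads matched the number for rab-19. These few remaining reads were 3.11-fold higher on PY79 at day 13, with an interval of 0.863 to 10.8 that includes 1, and 11.4-fold higher at day 4 (2.61 to 68.4). On its other side, emc-3, which encodes a subunit of a complex of the endoplasmic reticulum membrane, lies within 500 bases and had 67 reads at day 13 and 96 at day 4 on PY79, against 82 at day 13 and 49 at day 4 on OP50. It was 2.96-fold higher on PY79 at day 13 (2.11 to 4.14) and 9.59-fold higher at day 4 (6.73 to 13.8), the opposite direction to rab-19. For cutl-20, the overlapping gene shc-1, which encodes an SHC adaptor, was low on PY79 as well, with 1 read at day 13 and 3 at day 4 on PY79, against 107 at day 13 and 298 at day 4 on OP50.

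Around the 30 matched genes, 40 annotated genes overlapped or lay within 500 bases. Of these, 26 were in the count table and 18 had at least 10 reads in a library. Of the 18, 6 were lower and 4 higher on PY79 at day 13, and 7 were lower and 4 higher at day 4. The genes lower at both days were jmjd-4, Y62E10A.20, shc-1 and Y17G7B.12. The first 3 share exons with a chosen gene on the same strand, so their counts may include its reads. Y17G7B.12 lies beside glb-29 on the same strand with no overlap. It had 28 reads at day 13 and 12 at day 4 on PY79, against 208 at day 13 and 651 at day 4 on OP50. It was 2.05-fold lower on PY79 at day 13 (1.38 to 3.16) and 11.1-fold lower at day 4 (6.30 to 21.6). Over all 9032 genes, 22.6% were higher and 22.8% lower on PY79 at day 13, and 25.4% were higher and 24.3% lower at day 4. At day 13 the split of all calls was 2041 higher and 2063 lower, and 3524 higher and 1068 lower with total-read scaling. The neighbours higher at both days were emc-3, fkb-3 and ttm-2. The gene fkb-3, beside gei-6 and encoding a prolyl isomerase that binds FK506, had 20 reads at day 13 and 17 at day 4 on PY79, against 7 at day 13 and 11 at day 4 on OP50. The gene ttm-2, which overlaps F26G1.2 on the other strand, had 11 reads at day 13 and 10 at day 4 on PY79, against 4 at day 13 and 7 at day 4 on OP50. These neighbours had fewer OP50 reads than the chosen gene beside each, which had 654 or more over both days.

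W10G11.2 lies beside W10G11.3 on the same strand with no overlap, and the pair had similar reads in both OP50 libraries. W10G11.3 had 5 reads at day 13 and 10 at day 4 on PY79, against 25 at day 13 and 725 at day 4 on OP50. Its highest value was also in the OP50 day 4 library, and on PY79 at day 4 it held reads where W10G11.2 had 0. The gene trpp-11 lies beside rps-29, a ribosomal protein gene with 44761 reads at day 13 and 57570 reads at day 4 on PY79, against 363015 at day 13 and 239445 at day 4 on OP50. Its own scaled level was 2.24-fold lower on PY79 at day 13 (2.22 to 2.26) and 1.18-fold higher at day 4 (1.17 to 1.19).

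Where a gene has several transcript lines, the lines can be read in the same way. Of the 31 genes, 24 had 1 line and 7 had more, or 77.4% with a single line, beside 52.9% of the other 1819 genes. The second line of F26G1.2 had 11 reads at day 13 and 7 at day 4 on PY79, against 351 at day 13 and 535 at day 4 on OP50, above the PY79 reads of its chosen line. The second line of trpp-11 had 0 reads at day 13 and 1 at day 4 on PY79, against 298 at day 13 and 517 at day 4 on OP50. In pugs-1 the second line had 4 reads at day 13 and 5 at day 4 on PY79, close to the chosen line, against 24 at day 13 and 45 at day 4 on OP50, far below it. The other lines of C37H5.13 held at most 1 read in a library. The 2 lines of fis-2 and the lines of rab-19 and F40E3.5 were near to one another.

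In 39 other genes, 53 transcript lines met the same limits although the chosen line of the gene did not. For the line with most OP50 reads in each of these genes, the median share of the reads of the chosen line was 7.64% on PY79 and 95.6% on OP50. These lines were selected for low PY79 reads, so the shares are a description. In aipl-1, the second line had 1 read at day 13 and 3 at day 4 on PY79, against 867 at day 13 and 1619 at day 4 on OP50, while the first line had 101 at day 13 and 121 at day 4 on PY79, against 978 at day 13 and 1746 at day 4 on OP50. In C32D5.8, one line had 2 reads at day 13 and 0 at day 4 on PY79, against 1934 at day 13 and 3735 at day 4 on OP50, and the chosen line had 82 at day 13 and 81 at day 4 on PY79, against 2021 at day 13 and 3786 at day 4 on OP50. In aipl-1 and C32D5.8 most PY79 reads of the chosen line were thus missing from the other line. In pcyt-1 and mrps-11, which had 13 PY79 reads each on the chosen line, both lines were low on PY79. A gene with 1 annotated line cannot be examined this way.

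**Figure D4:**
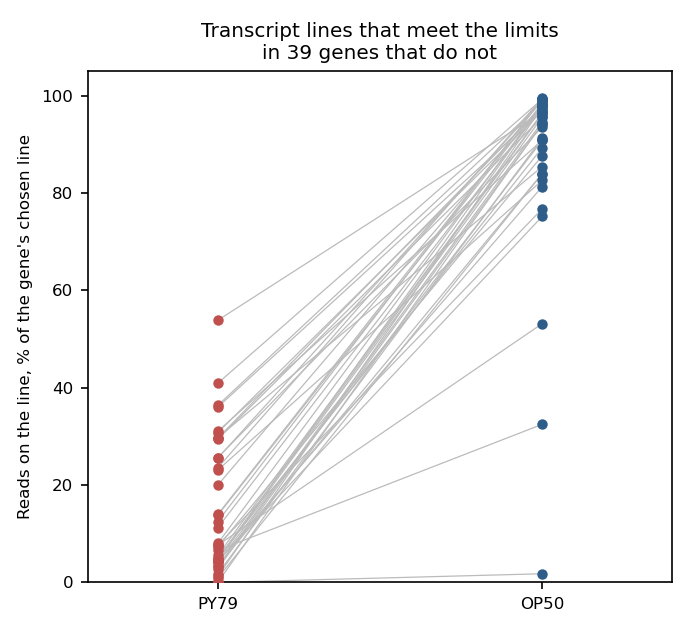
Reads of the transcript line meeting the limits, as a percent of those of the gene's chosen line (y axis), for 39 genes. These genes are outside the chosen set, and reads are summed over both days, on PY79 (left, red) and OP50 (right, blue). Each grey line joins 1 gene, and the medians are 7.64% on PY79 and 95.6% on OP50.

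A count without selection on low PY79 reads used the 1584 genes with more than 1 line and at least 50 reads on each diet. In 127 of them, or 8.02%, a line held under 50% of the reads of the chosen line on PY79 and at least 80% on OP50. The reverse, under 50% on OP50 and at least 80% on PY79, was found in 6 genes, or 0.379%. The limits of 80% and 50% were chosen after the values were seen. In those genes the ratio of reads between lines differed between the PY79 and OP50 libraries. Read positions were not examined, and the sources used do not state how reads fitting several lines were counted. Both lines of F40E3.5 had equal counts in each library, with 510 and 594 for OP50 at days 13 and 4. All 3 lines of rab-19 had a count of 778 for OP50 at day 13. Reads fitting several lines may thus have been counted on each of them, which was not tested. A line can hold reads that the chosen line lacks, as F26G1.2 shows on PY79. The chosen line was picked on reads summed over all libraries, which came mostly from OP50. Nothing is therefore read from the difference between 127 and 6 genes. Depth was not equalised for this count, and the part of such line differences in the low PY79 counts of the 31 genes was not tested.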

How the data were processed

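The deposited table holds unnormalized counts of reads for each annotated transcript in 4 libraries. The submitters' processing notes name Bowtie 0.12.7. Genome build, annotation, counting tool and strand setting were not given in the sources used, and coordinates are left out. The study's methods give FUDR, a drug that blocks progeny, as part of the plates for young and old transcriptomes in general, and do not name it in the passage on these diets. For each gene the transcript line with most reads over the 4 libraries was used. Genes with at least 10 reads in a library were analysed, and library sizes were scaled by TMM (edgeR 4.0.16, R 4.3.3). Ratios carry exact 95% Clopper-Pearson intervals (SciPy 1.17.1), which cover counting error only since each group has 1 library. The reads carry no molecular identifiers, so copies of the same molecule could not be told from separate molecules. The intervals may therefore be too narrow even for counting error. The calculation was tested on simulated data. Gene names, biotypes and overlaps came from Ensembl release 115, to which 16760 of 17096 genes were matched. The members and the gene lists were chosen with earlier results of these data known. All 31 genes could be named. Others were named only as neighbours, as genes next to a limit, as family or list members, or as examples of transcript lines, the last chosen after their values were seen. Alternatives were total-read scaling, DESeq2 1.42.0 size factors, no filter on low counts, other read limits, summed lines and other definitions of overlap.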

Additional observations from a re-analysis of the deposited data

How the results depend on the processing

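The number of genes followed the limits. With at most 6 PY79 reads 9 genes were left, with at least 1200 OP50 reads 5, and with halved limits met at each day 7, all of them among the 31. Reads summed over the lines of a gene gave 31 genes, of which 26 were shared. The chosen genes not shared were rab-19, F40E3.5, fis-2, pugs-1 and F26G1.2, each with more than 1 line. Lines of a gene can hold the same counts, so this sum may count a read more than once. F40E3.5, for example, had 5 PY79 reads at day 13 and 6 at day 4 on both its lines. Nothing is therefore read from the loss of these genes. Overlap on the same strand in exons left 3 genes in place of 17, and 500 bases added downstream gave 20, or 66.7%, below the 71.0% of the other genes with at least 600 OP50 reads, where the main definition gave 56.7% beside 36.8%. Under total-read scaling, DESeq2 size factors and no filter, 31 genes were lower on PY79 at day 4 and 28 at day 13, and 3 were higher at day 13 on OP50. With total-read scaling 18 in place of 16 were lower at day 13 on OP50, rab-19 and spon-1 being added. Total-read scaling moved the median over all genes, as a log2 ratio, by 0.79 for diet at day 13, 0.27 for diet at day 4, -0.31 for age on OP50 and 0.21 for age on PY79. W02G9.4, not called at day 13, changed sign between diets under DESeq2 size factors and with no filter (log2 ratio -0.10). F27C1.4 and F40E3.5, not called for age, changed sign under total-read scaling, to -0.27 and -0.21. No paired analysis was possible because each group has 1 library, and for the same reason no library could be left out. The depth of the PY79 libraries sets the limits. A floor of 3 reads is 0.513 CPM at day 13 and 0.556 CPM at day 4 on PY79, against 0.141 CPM at day 13 and 0.114 CPM at day 4 on OP50.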

Other observations

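The fixed gene lists, chosen with earlier results known, hold few of the 31 genes: 3 of 29 lists hold 1 each, namely msp-76, fbxc-52 and the non-coding RNA T05E11.9, and 28 genes are in none. Among genes with fewer than 600 OP50 reads, set-23 had the age pattern of hpo-6, with 1 read at day 13 and 2 at day 4 on PY79, against 13 at day 13 and 579 at day 4 on OP50, and Y48G9A.7 had 0 at day 13 and 4 at day 4 on PY79, against 20 at day 13 and 569 at day 4 on OP50. Of the Rab genes, rab-6.1 had 111 reads at day 13 and 148 at day 4 on PY79, against 175 at day 13 and 1765 at day 4 on OP50, and of the TRAPP genes, trpp-5 had 11 at day 13 and 20 at day 4 on PY79, against 11 at day 13 and 306 at day 4 on OP50. Both had their most reads in the OP50 day 4 library, and in scaled reads both were higher on PY79 at day 13 and lower at day 4. They were singled out after their values were seen.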
